A study of Mus musculus with 16 samples.

Results

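The type I interferon-stimulated genes are 36 genes taken by symbol from 16 RNA sequencing libraries of HM1 tumours, out of 53112 gene symbols in the tables of whole tumours and 55290 in those of sorted CD8 cells. All 36 were found, each as a single entry. They were divided by the known role of their products into transcription factors and feedback (4 genes), sensors of nucleic acids (6), ubiquitin-like and ADP-ribosyl modification (4), the IFIT and OAS families that act on RNA (10), other antiviral effectors (8) and other induced genes (4).

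Type I interferons, which include interferon alpha and beta, bind the IFNAR1 and IFNAR2 receptor chains on nearly every nucleated cell. The kinases JAK1 and TYK2 then activate STAT proteins, among them STAT2, which joins IRF9 in a complex named ISGF3 that binds interferon-stimulated response elements in the promoters of the genes described here. In tumours such interferons are made mainly by myeloid and dendritic cells that have sensed nucleic acids, and T cells answer them as well as making interferon gamma, which induces an overlapping set of genes.

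HM1 is a mouse ovarian cancer model, and the labels give 2 tissues and 2 treatments: tumours with mannose supplementation and control tumours, measured as whole tumour tissue (5 mannose and 5 control libraries) or as CD8 T cells sorted from tumours (3 mannose and 3 control libraries). Mannose is a simple sugar; its dose, route and duration, the mouse strain, age and sex, the gate of the sort and any further agent are not given in the sources used here. The labels do not say whether replicates came from separate animals, so p-values measure only the spread between these libraries, which may be technical. Values are in TPM, a per-length abundance of transcripts scaled to a common total, from which read depth cannot be known; symbols at or above 1 TPM numbered 12345 to 13820 in tumours and 13538 to 14384 in CD8 libraries.

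Several features of the libraries bear on the values. All 6 CD8 tables, the 3 control ones included, carry a column heading that names mannose, and each direction in CD8 libraries rests on the sample labels. In their use of T cell receptor beta V segments, CD8 mannose 1 and 2 differed by 6.39% and CD8 control 1 and 2 by 4.03%, against 37.3% to 57.8% for every other pair, so each group may hold fewer than 3 separate sources. Cd8a measured 285, 378 and 564 TPM in the CD8 mannose libraries, against 591, 569.6 and 586 TPM in the CD8 control libraries. Markers of other cells were also present: the macrophage receptor Csf1r at 41.6 to 50.5 TPM in mannose and 164 to 194 TPM in control libraries, and the keratin Krt8 at 674 to 1050.1 TPM in mannose and 90.4 to 219 TPM in control libraries. Among whole tumours, mannose 3 stood apart in the interferon-stimulated genes, as given below.

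The core of the response element was found in the promoters of several of the genes, and stretches of 8 are shown to set close relatives, and genes whose values went opposite ways, side by side; no result below rests on them. RefSeq windows of 300 bases (250 before the start of transcription and 50 after it, build GRCm38.p6, which is not the build of the expression tables) were matched by symbol for 26 of the 36 genes. The core, spelt GAAA, then any base N at 2 places, then GAAA, was searched on both strands (on the other strand TTTC, NN, TTTC), and overlapping matches were joined. A match was present in any window of 14 of these 26 genes (53.8%), against 1079 of all 27025 genes with a window (3.99%). A match describes the letters and does not show that a factor binds. Capitals mark the matches, and each stretch reads 5′ to 3′ on the strand of its gene.
Isg15: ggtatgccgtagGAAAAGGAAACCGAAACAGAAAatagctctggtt
Rsad2: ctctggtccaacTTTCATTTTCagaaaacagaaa
Ifit1: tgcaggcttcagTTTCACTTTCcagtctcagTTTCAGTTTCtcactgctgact
Ifit3: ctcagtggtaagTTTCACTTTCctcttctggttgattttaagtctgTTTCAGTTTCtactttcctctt
Ifit3b: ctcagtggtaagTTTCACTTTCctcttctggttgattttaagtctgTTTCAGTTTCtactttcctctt
Oas1a: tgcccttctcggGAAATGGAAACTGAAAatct
Oas1g: tgcccttctcggGAAATGGAAACTGAAAat
Bst2: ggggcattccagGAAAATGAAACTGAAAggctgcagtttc
The stretch of Isg15 lies at chr4:156200863-156200908 and that of Rsad2 at chr12:26456551-26456584, both on the minus strand. Those of Ifit1 (chr19:34640773-34640825), Ifit3 (chr19:34583361-34583428) and Ifit3b (chr19:34607757-34607824) lie on the plus strand, and those of Oas1a (chr5:120907526-120907557), Oas1g (chr5:120887614-120887643) and Bst2 (chr8:71537575-71537614) on the minus strand. In Isg15, 3 overlapping matches ran together, the first beginning 78 and the last 66 bases before the start. Ifit3 and Ifit3b carried an identical stretch, 2 matches each, and the stretches of Oas1a and Oas1g were alike as well. These are pairs of close relatives whose reads can be assigned to either copy, so their separate values are uncertain. Bst2 and Isg15 both carried the core, and their values went opposite ways in CD8 libraries, as described next.

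With mannose, 24 of the 36 genes fell in CD8 libraries, 1 rose and 11 did not pass the test, whereas none of the 35 genes tested passed in whole tumours (0.0% of all 13282 symbols tested). The largest falls were of Rsad2, Isg15 and Mx1, and the gene that rose was Bst2. The test was limma, fitted on log2(TPM + 1) over all symbols that reached 1 TPM in at least 3 CD8 or 5 tumour libraries, with Benjamini-Hochberg adjusted p under 0.05 as the threshold; differences below are on that scale, which understates changes of low genes. Of all 14280 symbols tested in CD8 libraries, 11.7% fell and 23.2% rose, so the genes that fell made up a larger share of the 36 (66.7%) than of all symbols. The median difference was -0.79 over the 36 genes and 0.09 over all symbols. Every mannose value lay below every control value for 25 of the 36 genes (18.1% of all symbols) and above for 1 gene (33.3% of all symbols).

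**Figure D1:**
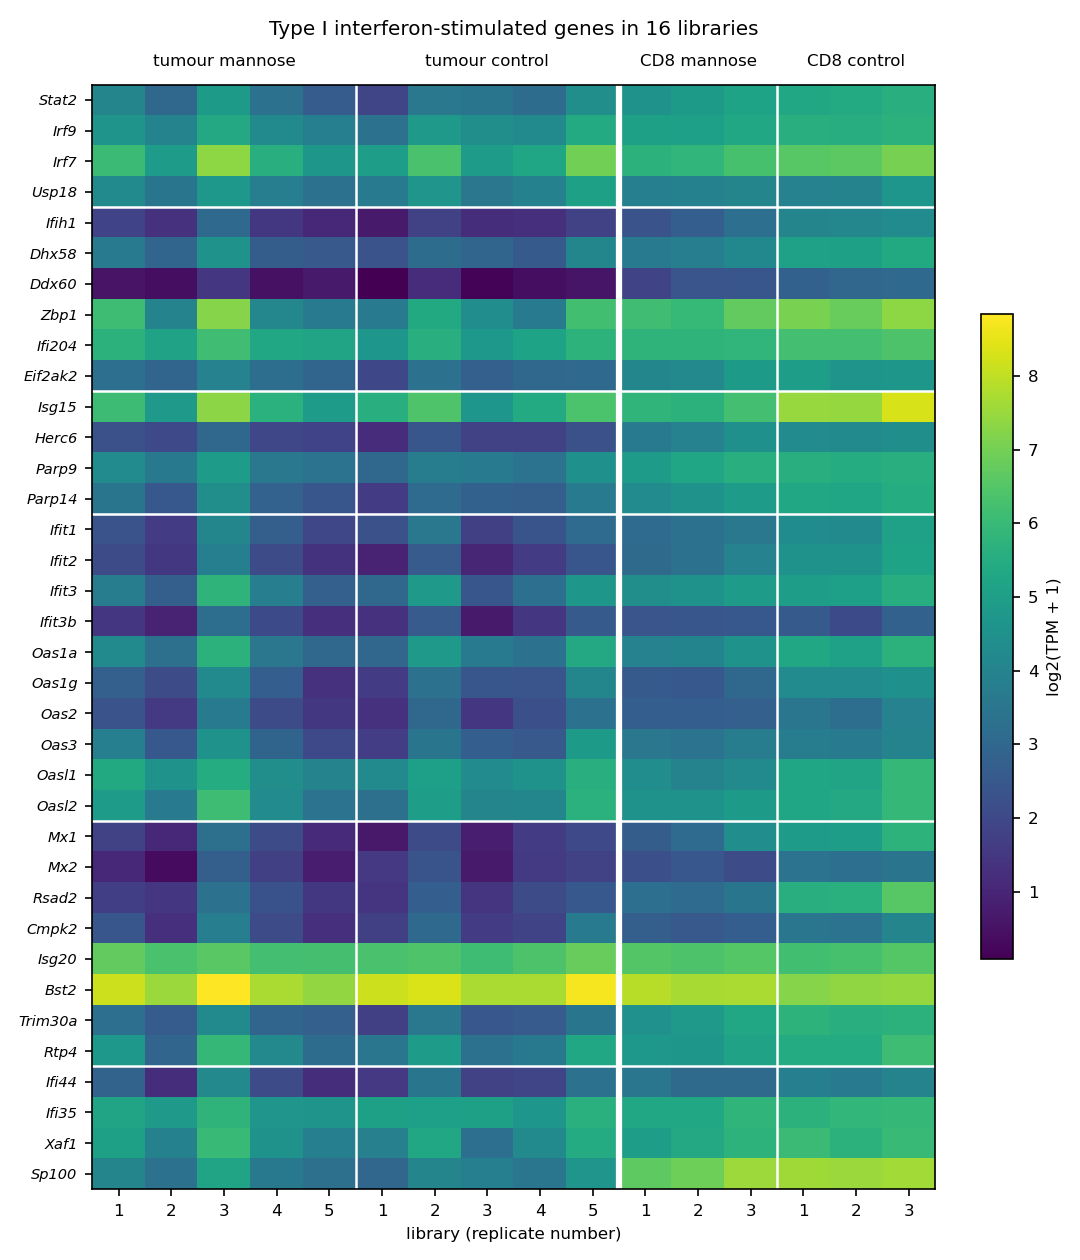
Heat map of the 36 genes (rows, grouped by role) in 16 libraries (columns), coloured by log2(TPM + 1). The 3 CD8 mannose libraries have mean levels of 4.21 to 4.64 over the 36 genes, against 5.04 to 5.44 in the 3 CD8 control libraries, while tumours range from 2.86 to 4.87 with mannose and from 2.78 to 4.32 in controls.

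Among the transcription factors, 3 of 4 fell in CD8 libraries. Irf7, the factor that drives interferon alpha transcription, measured 50.8, 56.2 and 76.5 TPM in mannose libraries, against 94.4, 98.8 and 131 TPM in control libraries. Stat2, which encodes a subunit of ISGF3, measured 23.0, 27.7 and 34.6 TPM in mannose libraries, against 38.1, 42.5 and 46.2 TPM in control libraries. In both genes the groups did not overlap, with differences of -0.82 (SE 0.19, adjusted p = 0.0155) for Irf7 and -0.57 (SE 0.16, adjusted p = 0.0306) for Stat2. Stat2 kept its call in 1 of 6 fits that each left out a CD8 library. Irf9, which gives ISGF3 its DNA binding, fell as well, by 0.49 (adjusted p = 0.0126). Usp18, a protease that removes ISG15 from proteins and shuts off the receptor, measured 13.5, 14.1 and 15.8 TPM in mannose and 14.5, 15.2 and 24.4 TPM in control libraries. For Usp18 the groups overlapped, only control 3 stood high, and the difference of -0.26 (SE 0.20, adjusted p = 0.353) did not pass. In whole tumours Irf7 measured 64.7, 28.7, 162, 46.8 and 25.2 TPM with mannose, against 30.5, 80.0, 28.5, 37.7 and 124 TPM in controls, and Stat2 measured 15.6, 7.21, 28.1, 9.28 and 5.16 TPM with mannose, against 2.80, 11, 10.1, 8.01 and 20.1 TPM in controls. Both genes were highest in mannose 3 and second highest in control 5, and the groups overlapped widely. Usp18 measured 18.2, 10.3, 26.0, 13.3 and 9.15 TPM in mannose tumours, against 12.3, 24, 10.8, 14.4 and 32.6 TPM in control tumours, and here control 5 was the highest.

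Of the nucleic acid sensors, 5 of 6 fell in CD8 libraries. Ifih1 encodes MDA5, a cytosolic sensor of long double-stranded RNA. It measured 4.01, 5.48 and 8.73 TPM in mannose libraries, against 15.7, 16.8 and 18.6 TPM in control libraries, a difference of -1.40 (SE 0.24, adjusted p = 0.00587). Its regulator Dhx58, which encodes LGP2, measured 11.8, 13.2 and 17.1 TPM in mannose libraries, against 33.4, 32.0 and 41.0 TPM in control libraries, a difference of -1.28 (SE 0.16, adjusted p = 0.00246). For both sensors each control library was far above each mannose library. Zbp1, which binds Z-form nucleic acids and can start necroptosis, measured 69.3, 61.4 and 104 TPM in mannose libraries, against 135, 111 and 163 TPM in control libraries, with mannose 3 just under control 2 (difference -0.81, SE 0.22, adjusted p = 0.0292). The DNA-binding Ifi204 measured 53.7, 53.6 and 56.3 TPM in mannose libraries, against 72.8, 74.2 and 83.5 TPM in control libraries. Its difference of -0.48 (SE 0.08, adjusted p = 0.00604) was small but larger than the spread; Ifi204 belongs to a family of close copies, so reads can be split between them. Ddx60, a helicase that aids RNA sensing, fell by 0.71 (adjusted p = 0.0271), a call kept in 1 of 6 such fits. Eif2ak2, the kinase PKR that halts translation on double-stranded RNA, measured 16, 17.6 and 28.1 TPM in mannose libraries, against 30.9, 23.4 and 25.1 TPM in control libraries; mannose 3 lay inside the control range and the gene did not pass (adjusted p = 0.225).

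In whole tumours the sensors showed a wide spread instead. Ifih1 measured 2.61, 1.51, 7.43, 1.83 and 1.06 TPM with mannose, against 0.650, 2.48, 1.37, 1.45 and 2.54 TPM in controls. Zbp1 measured 67.8, 15, 149.5, 16.5 and 12.2 TPM with mannose, against 12.1, 40.9, 19.5, 12.2 and 71.7 TPM in controls. Mannose 3 was the highest tumour for all 6 sensors, and it was 12.4 times as high in Zbp1 as the lowest tumour, control 1. Eif2ak2, the gene with the smallest p of the 35 in tumours, measured 8.65, 6.75, 14.5, 8.38 and 6.60 TPM with mannose, against 2.91, 9.09, 5.79, 7.2 and 7.52 TPM in controls. Its difference was 0.43 (SE 0.27, adjusted p = 0.754). For Ifi204 the tumour values were 51.6, 34.3, 69.8, 39.1 and 35.8 TPM with mannose, against 24.9, 47.4, 25.8, 34.5 and 52.7 TPM in controls. Its mannose and control tumours overlapped, and control 1 and 3 were lowest (difference 0.32, SE 0.25, adjusted p = 0.781). Ddx60 stayed at 0.33 to 1.77 TPM in mannose and 0.06 to 1.28 TPM in control tumours and was too low to be tested there.

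Among the modifiers, Isg15 and Parp14 fell in CD8 libraries and Herc6 and Parp9 did not pass. Isg15 encodes a ubiquitin-like protein that is joined to newly made proteins and is also secreted. It measured 54.9, 50.9 and 73.6 TPM in mannose libraries, against 179, 174 and 319 TPM in control libraries, a 3.75-fold lower mean with mannose and a difference of -1.85 (SE 0.26, adjusted p = 0.00298). In whole tumours Isg15 measured 66.3, 27.4, 158, 49.8 and 28.6 TPM with mannose, against 48.0, 85.8, 24.6, 41.9 and 80.6 TPM in controls, a difference of 0.05 with an interval of -0.89 to 1.00 (2 SE on each side). The highest and lowest tumours for Isg15 were mannose 3 and control 3, and the groups overlapped. Parp14, an ADP-ribosyltransferase, fell by 0.76 in CD8 libraries (adjusted p = 0.0139). Herc6, the main ISG15 ligase of mice, had 11.9, 14.7 and 21.5 TPM in mannose libraries, against 18.7, 17.9 and 20.8 TPM in control libraries; mannose 3 exceeded every control, and the gene did not pass (adjusted p = 0.339). In tumours Herc6 measured 3.77, 3.00, 7.06, 2.84 and 2.55 TPM with mannose, against 1.29, 4.37, 2.46, 2.50 and 3.82 TPM in controls (difference 0.31, SE 0.27, adjusted p = 0.798).

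**Figure D2:**
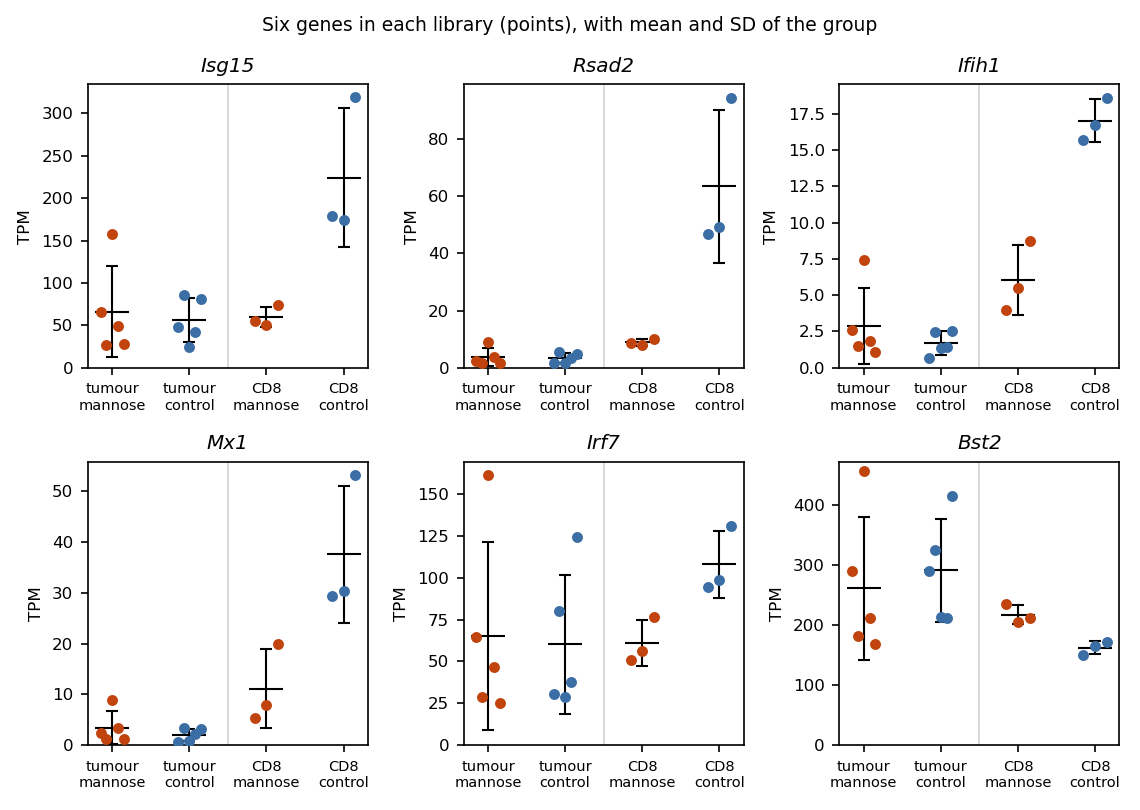
TPM of 6 genes in every library (points), with the mean (long bar) and SD (short bars) of 5 mannose and 5 control tumours and of 3 mannose and 3 control CD8 libraries. In CD8 libraries the mannose points of Isg15, Rsad2, Ifih1, Mx1 and Irf7 lie below all control points and those of Bst2 above; in tumours the groups overlap in all 6 genes.

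In the IFIT and OAS families, 7 of 10 genes fell in CD8 libraries. Ifit1, whose product binds RNA with an unmethylated cap, measured 7.74, 9.25 and 11 TPM in mannose libraries, against 19.2, 17.7 and 33.2 TPM in control libraries (difference -1.19, SE 0.25, adjusted p = 0.0116). Ifit2 fell by 1.28 (adjusted p = 0.00998). Ifit3, whose human counterpart steadies IFIT1, measured 20.2, 22.9 and 28.7 TPM in mannose libraries, against 30.1, 31.4 and 45.0 TPM in control libraries. The groups of Ifit3 did not overlap, yet its difference of -0.54 (SE 0.19, adjusted p = 0.0672) did not pass. Its close copy Ifit3b had 4.22, 4.32 and 4.57 TPM in mannose libraries, against 4.90, 3.18 and 6.02 TPM in control libraries, with control 2 lowest of the 6 (adjusted p = 0.863). The OAS enzymes make oligoadenylates, which set off the breakdown of RNA in the cell. Oas1g, the gene with the smallest p of the 36, measured 4.85, 4.60 and 7.03 TPM in mannose libraries, against 18.7, 18.9 and 21.4 TPM in control libraries (difference -1.69, SE 0.17, adjusted p = 0.00125). Oas2 measured 5.54, 5.53 and 5.87 TPM in mannose libraries, against 10.4, 8.43 and 14.7 TPM in control libraries (difference -0.84, SE 0.20, adjusted p = 0.0175). For both OAS genes the groups were apart, while the spread between control libraries was larger for Oas2. Oas1a fell by 1.19 and the OAS-like genes Oasl1 by 1.23 and Oasl2 by 0.84 (adjusted p from 0.00626 to 0.0167), and Oas3 did not pass (-0.25, adjusted p = 0.235).

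In whole tumours the values of these RNA-binding effectors ranged widely in both treatments. Ifit1 measured 3.99, 2.14, 16, 5.66 and 2.90 TPM with mannose, against 3.74, 11.2, 2.31, 4.11 and 7.81 TPM in controls. Ifit3 measured 12.5, 5.62, 53.6, 13.1 and 5.88 TPM with mannose, against 7.23, 26.6, 4.37, 8.69 and 25.1 TPM in controls, and Ifit3b measured 1.75, 0.890, 8.51, 3.16 and 1.38 TPM with mannose, against 1.54, 4.99, 0.660, 1.78 and 4.86 TPM in controls. Mannose 3 was the highest in each, followed by control 2, and control 3 was at or near the bottom. Oas2 measured 4.04, 1.97, 11.8, 3.38 and 1.81 TPM with mannose, against 1.51, 6.99, 1.76, 3.64 and 9.41 TPM in controls, and Oas1g measured 5.87, 3.39, 18.5, 5.49 and 1.5 TPM with mannose, against 2.12, 9.17, 4.38, 4.27 and 16.1 TPM in controls. For Oas2 and Oas1g control 5 came next after mannose 3, and for Oas3 and Oasl1 control 5 was above it. None of the 10 passed, with differences of -0.14 for Oas1g to 0.46 for Ifit2.

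The other antiviral effectors held the largest fall and the single rise in CD8 libraries: 6 of 8 fell and 1 rose. Rsad2 encodes viperin, which makes a nucleotide that ends viral RNA chains. It measured 8.82, 7.80 and 10.1 TPM in mannose libraries, against 46.6, 49.1 and 94.3 TPM in control libraries, a 7.11-fold lower mean with mannose and a difference of -2.63 (SE 0.27, adjusted p = 0.00139). Its neighbour Cmpk2, a mitochondrial nucleotide kinase, fell by 1.02 (adjusted p = 0.00787). Mx1 and Mx2 encode dynamin-like GTPases that bind viral nucleocapsids; many inbred mouse strains carry a defective Mx1, and the strain used is not given here. Mx1 measured 5.39, 7.86 and 19.99 TPM in mannose libraries, against 29.4, 30.3 and 53.2 TPM in control libraries (difference -1.81, SE 0.45, adjusted p = 0.0212). Mx2 measured 3.69, 4.52 and 3.20 TPM in mannose libraries, against 9.74, 8.74 and 9.83 TPM in control libraries (difference -1.13, SE 0.15, adjusted p = 0.00282). Within mannose, Mx1 was highest in library 3, the one with the most Cd8a, whereas Mx2 was lowest there. Trim30a, an inhibitor of NF-kappaB signalling, and Rtp4, a receptor chaperone, fell by 0.83 and 0.82 (adjusted p = 0.0176 and 0.0228).

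Bst2, or tetherin, ties budding virus to the cell surface and in mice also marks plasmacytoid dendritic cells. It measured 235, 205 and 211 TPM in CD8 mannose libraries, against 149.9, 164 and 172 TPM in CD8 control libraries, a rise of 0.42 (SE 0.09, adjusted p = 0.0115). The exonuclease gene Isg20 measured 89.8, 82.4 and 92.4 TPM in mannose libraries, against 71.2, 77.8 and 91.6 TPM in control libraries; the groups overlapped at control 3 and the gene did not pass (adjusted p = 0.357). In whole tumours Bst2 was the most abundant of the 36 genes, at 289, 181, 456, 211 and 168 TPM with mannose, against 289.7, 324, 213, 211 and 415 TPM in controls. Its tumour difference of -0.21 (SE 0.28, adjusted p = 0.853) was negative and did not pass.

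For the remaining effectors the tumours were again spread across both treatments. Rsad2 measured 2.23, 1.76, 9.12, 3.85 and 1.84 TPM with mannose, against 1.62, 5.51, 1.70, 3.38 and 4.69 TPM in controls. Mx1 measured 2.44, 1.11, 8.90, 3.34 and 1.19 TPM with mannose, against 0.600, 3.27, 0.750, 2.10 and 3.09 TPM in controls, and Mx2 measured 1.06, 0.280, 5.64, 2.37 and 0.680 TPM with mannose, against 1.87, 4.10, 0.660, 1.98 and 2.41 TPM in controls. Mannose 3 was the highest for all 3 genes, and control 2 was next for Rsad2 and Mx2 and followed mannose 4 for Mx1. Trim30a measured 8.69, 5.15, 18.1, 6.62 and 5.81 TPM with mannose, against 2.32, 11.1, 4.52, 5.00 and 10.1 TPM in controls. Cmpk2 measured 4.36, 1.45, 13.2, 3.35 and 1.41 TPM with mannose, against 2.33, 7.49, 2.06, 2.71 and 12.1 TPM in controls. The highest tumour was 7.81 times the lowest for Trim30a and 9.36 times for Cmpk2, and neither gene passed (differences 0.40 and -0.22).

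Of the other induced genes, Ifi44 fell in CD8 libraries by 0.61 (adjusted p = 0.0257), a call kept in 1 of 6 fits that left out a library. Ifi35, Xaf1, an antagonist of the apoptosis inhibitor XIAP, and the nuclear body protein Sp100 had differences of -0.36, -0.57 and -0.53 and did not pass (adjusted p from 0.0699 to 0.112). Sp100 was far higher in CD8 libraries than in tumours, at 136 ± 46.5 TPM in CD8 mannose and 191 ± 7.57 TPM in CD8 control libraries (SD, n = 3 each), against 16.2 ± 11.2 TPM in mannose and 14.2 ± 6.58 TPM in control tumours (SD, n = 5 each). Ifi35 measured 35.9, 27.3, 53.8, 24 and 23.4 TPM in mannose tumours, against 32.3, 31.6, 32.3, 24.4 and 48.4 TPM in control tumours, a range of 2.30-fold that was narrower for Isg20 alone (difference -0.08, SE 0.24, adjusted p = 0.936).

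**Figure D3:**
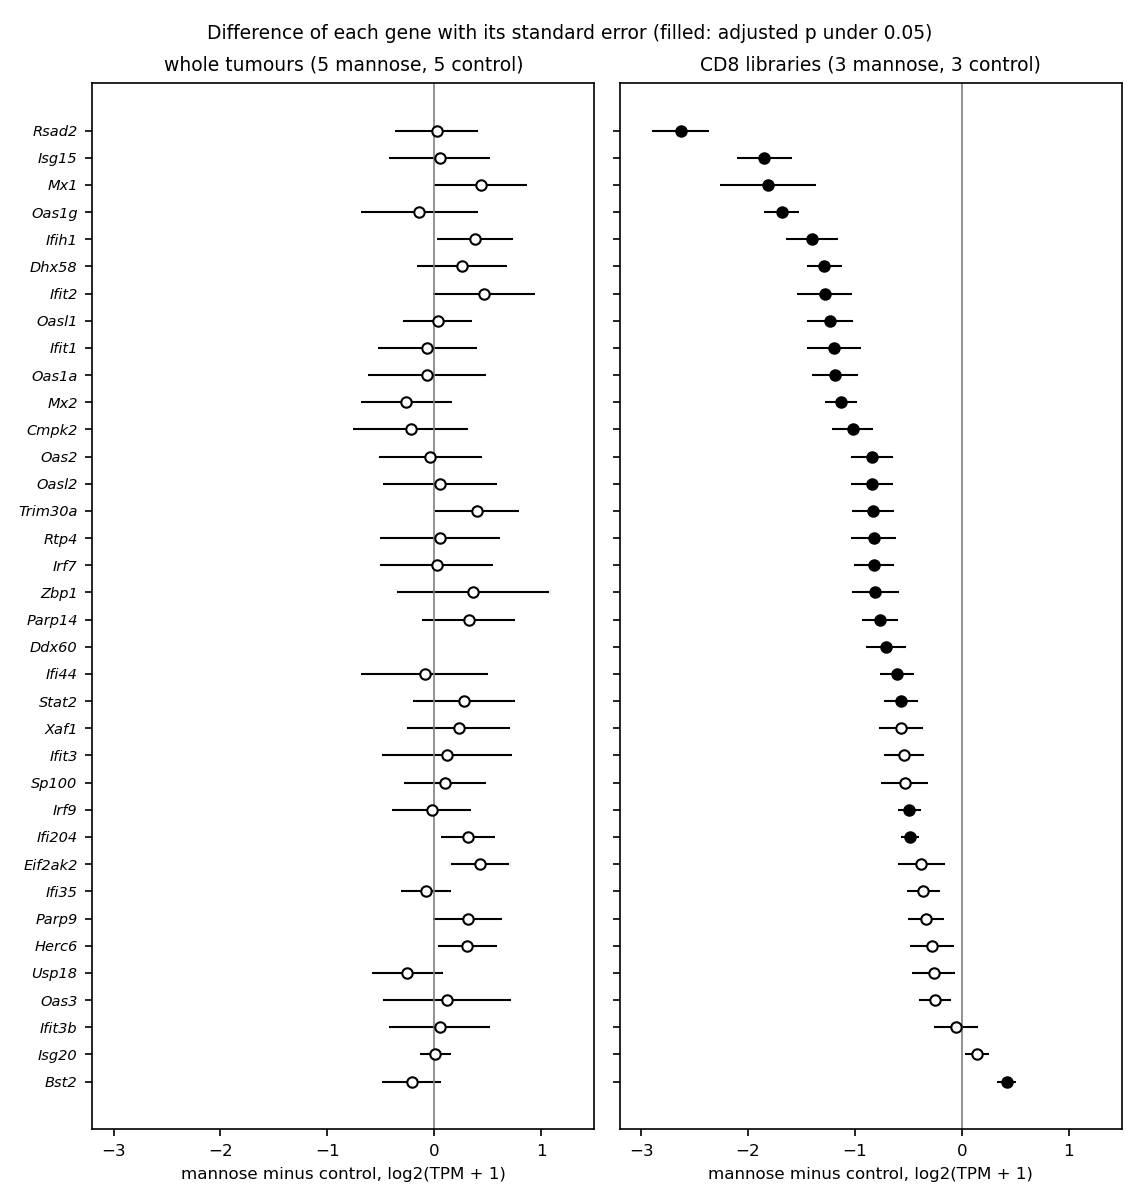
Difference between mannose and control in log2(TPM + 1) for each gene (point) with its standard error (line), in 5 mannose and 5 control tumours (left) and 3 mannose and 3 control CD8 libraries (right); filled points have an adjusted p under 0.05. In CD8 libraries 34 of 36 points lie left of 0 and 25 are filled, while the tumour points lie between -0.26 and 0.46 with none filled; Ddx60 was not tested in tumours.

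The CD8 mannose libraries were not alike in these genes. Mannose 1 and mannose 2 were each below every control library for 33 of the 36 genes, and mannose 3 for 25. The 11 genes for which mannose 3 was not below were Usp18, Eif2ak2, Herc6, Parp9, Ifit3b, Oas3, Isg20, Bst2, Ifi35, Xaf1 and Sp100. The mean level over the 36 genes was 4.38 ± 0.23 in mannose and 5.19 ± 0.22 in control libraries (SD, n = 3 each). When mannose 2 was left out the number that fell was 12 (894 of all 14685 symbols). When mannose 3 was left out it was 30 (2509 of all 14789 symbols). With the like pairs (mannose 1 and 2, control 1 and 2) each averaged to 1 library, 6 genes fell, none rose and the median difference was -0.71. Those 6 were Rsad2, Isg15, Oas1g, Mx2, Dhx58 and Oasl1. Over all 14459 symbols of that fit 561 fell and 1091 rose. In a fit of all 16 libraries, which takes in the wide spread of the tumours, 5 fell (Rsad2, Isg15, Ifih1, Mx1 and Oasl1) and none rose. There 1258 of all 15498 symbols fell and 2748 rose. Of the 25 calls, 13 were kept whichever library was left out. Stat2, Ddx60 and Ifi44 each lost theirs in 5 of 6 such fits, Stat2 and Ddx60 keeping it without mannose 3 alone and Ifi44 without mannose 1 alone. Zbp1 lost its call without control 1, control 3, mannose 1 or mannose 2, Mx1 without control 3, mannose 1 or mannose 2, and Trim30a without control 1, control 3 or mannose 2. Irf7, Oas2, Oasl2 and Rtp4 lost theirs without mannose 1 or mannose 2, and Irf9 and Parp14 without mannose 2. The highest adjusted p in these fits was 0.0972 for Stat2, 0.0832 for Ddx60, 0.0969 for Ifi44, 0.0997 for Zbp1, 0.0809 for Mx1 and 0.0568 to 0.0866 for the other 7 genes. Rsad2 and Isg15 kept theirs in all 17 alternatives.

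Cell markers moved with treatment in the CD8 libraries, and their part in these differences was not tested. The scaling to T cell markers given after them only divided each library by its summed T cell markers. It left RNA of the other cells in place, so it cannot tell which cells the differences came from. The counts below stand beside 11.7% of all symbols that fell and 23.2% that rose. Of 14 macrophage and monocyte markers 13 fell, with a median difference of -1.86 and summed levels of 1184 to 1546 TPM in mannose and 4256 to 4573 TPM in control libraries. Of 12 T cell markers 3 fell (Cd5, Cd3d and Cd247; median -0.64), with summed levels of 3009, 3790.2 and 5825 TPM in mannose libraries, against 6105, 5835 and 6267 TPM in control libraries. Of 7 carcinoma markers tested 6 rose and 1 fell (median 2.38, 12 markers summing to 1745 to 2672 TPM in mannose and 259 to 574 TPM in control libraries). Of 8 plasmacytoid dendritic cell markers 4 fell and 1 rose (median -0.68, summing to 102 to 149 TPM in mannose and 185 to 189.7 TPM in control libraries). Of 7 tested markers of other dendritic cells 5 fell (median -0.89, the list of 8 summing to 106 to 177 TPM in mannose and 249 to 391 TPM in control libraries). Of 6 tested neutrophil markers 5 fell (median -1.44, the list of 8 summing to 98.0 to 198 TPM in mannose and 306 to 663 TPM in control libraries). Of 5 tested markers of CD4 and regulatory T cells 4 fell (median -0.80, the list of 6 summing to 243 to 455 TPM in mannose and 483 to 504 TPM in control libraries). Of 8 fibroblast markers 6 rose (median 1.55, summing to 248 to 390.4 TPM in mannose and 46.9 to 139 TPM in control libraries). Of 6 endothelial markers 2 rose (median 0.72), 1 of 3 tested B and plasma cell markers, 1 of 4 tested muscle markers and none of 3 tested natural killer cell markers fell. Of 8 immediate-early genes, which respond quickly to many stimuli, 5 rose (median 0.41, summing to 1712 to 2070.0 TPM in mannose and 1209 to 1754 TPM in control libraries). None of the defining markers Cd3e, Csf1r, C1qa, Krt8 and Siglech was at 0 in a CD8 library, and Epcam, another epithelial marker, was at or under 0.91 TPM in all 16. In bulk libraries fewer cells of a type and less RNA per cell cannot be told apart.

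With each CD8 library scaled to its summed T cell markers, 7 of the 36 genes fell (2.81% of all 14236 symbols fell) and 1 rose (31.0% of all symbols rose). Those that fell were Rsad2 (-2.08), Mx1 (-1.28), Isg15 (-1.27), Oas1g (-1.17), Ifih1 (-0.89), Ifit2 (-0.74) and Dhx58 (-0.73). Bst2 rose by 1.00 on this scale. The scaling moved the median of all symbols to 0.62, against -0.23 for the 36 genes, and 22 of the 36 differences were negative. Irf9 and Ifi204 turned to 0.08 and 0.09 and no longer passed, and Stat2 (-0.005) and Zbp1 (-0.23) no longer passed either.

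**Figure D4:**
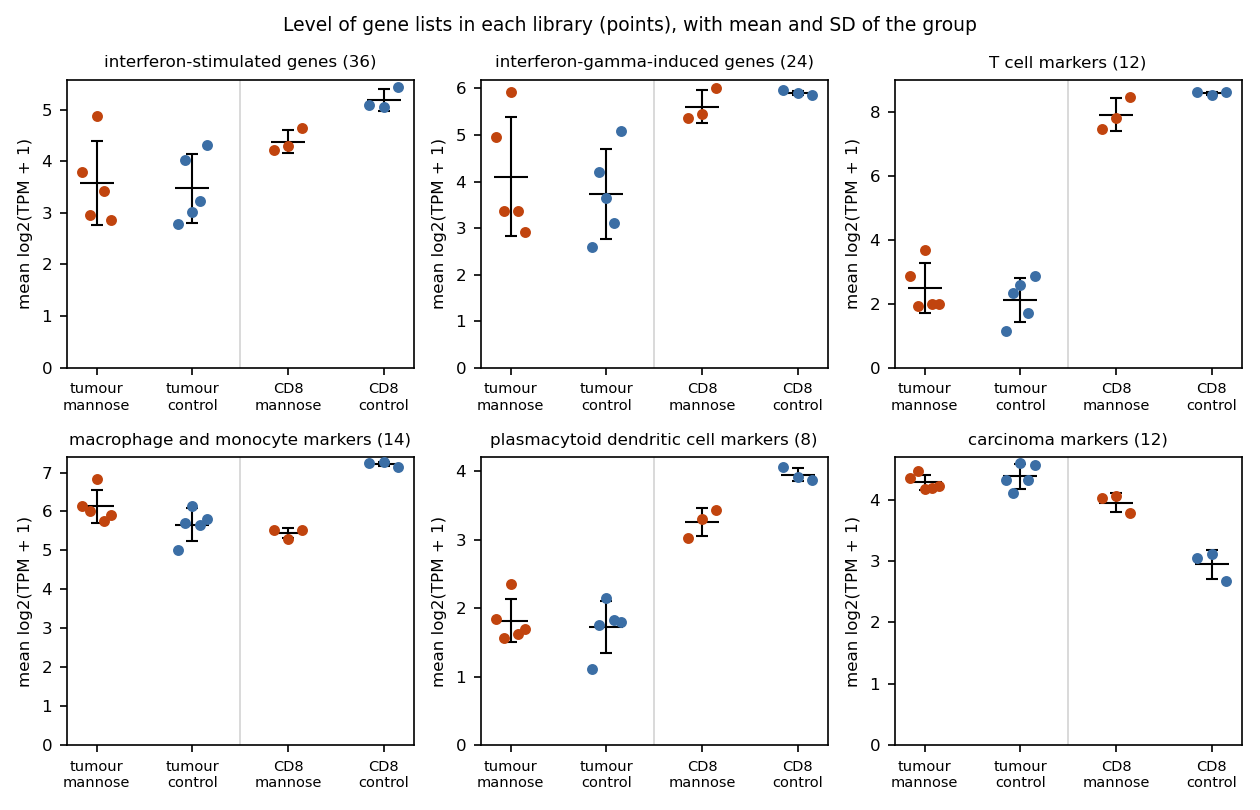
Mean log2(TPM + 1) of 6 gene lists in each library (points), with the mean and SD of each group (5 mannose and 5 control tumours, 3 mannose and 3 control CD8 libraries). In CD8 libraries the levels of interferon-stimulated genes, T cell, macrophage and plasmacytoid dendritic cell markers are lower with mannose and carcinoma markers higher, while in tumours the groups overlap in all 6 lists. Interferon-gamma-induced genes overlap in CD8 libraries too, at 5.37, 5.44 and 6.01 with mannose, against 5.96, 5.91 and 5.87 in controls.

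In whole tumours the interferon-stimulated genes showed no treatment difference that passed, and they varied strongly from tumour to tumour. None of the 35 tested had an adjusted p under 0.05 (smallest 0.754) or an unadjusted p under 0.05; of all 13282 symbols 827 (6.23%) had an unadjusted p under 0.05. Differences were positive for 24 genes and negative for 11, with a median of 0.05 against 0.12 over all symbols. None had every mannose tumour above every control tumour (1.51% of all symbols) or every mannose tumour below (0.128%). The mean level over the 36 genes was 3.58 ± 0.81 in mannose and 3.47 ± 0.67 in control tumours (SD, n = 5 each). With a spread this wide a difference could not be bounded closely: intervals of 2 SE on each side were -0.75 to 0.79 for Rsad2 and -1.03 to 1.08 for Irf7. The standard deviation within groups had a median of 0.81 over the tested genes, from 0.23 for Isg20 to 1.34 for Zbp1, against 0.28 over all symbols.

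The 36 genes tended to be high in a few tumours and low in others, in both treatments. Mannose 3 was the highest tumour for 31 genes and control 5 for the other 5 (Irf9, Usp18, Oas3, Oasl1 and Isg20). Control 1 was the lowest for 20 genes, mannose 5 for 8, control 3 for 5 and mannose 2 for 3. The 4 highest tumours held mannose 3 for all 36 genes, control 2 and control 5 for 35 each and mannose 1 for 27. Mean levels over the 36 genes were 3.79, 2.96, 4.87, 3.43 and 2.86 in mannose tumours 1 to 5, against 2.78, 4.03, 3.01, 3.22 and 4.32 in control tumours 1 to 5. Interferon-gamma-induced genes (24 genes, such as Cxcl9 and Gbp4) had mean levels of 4.95, 3.36, 5.92, 3.37 and 2.92 in the same mannose tumours, against 2.60, 4.20, 3.64, 3.10 and 5.08 in the control tumours. T cell markers had 2.87, 1.93, 3.69, 1.99 and 2.00 in mannose tumours, against 1.16, 2.33, 2.60, 1.71 and 2.85 in control tumours. Mannose 3 was highest and control 1 lowest in all 3 lists, and the part of cell content in these levels was not tested. Without mannose 3 the median tumour difference of the genes was -0.26, without control 5 it was 0.34, and without both mannose 3 and control 1 it was -0.42; none of these fits called a gene.

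**Figure D5:**
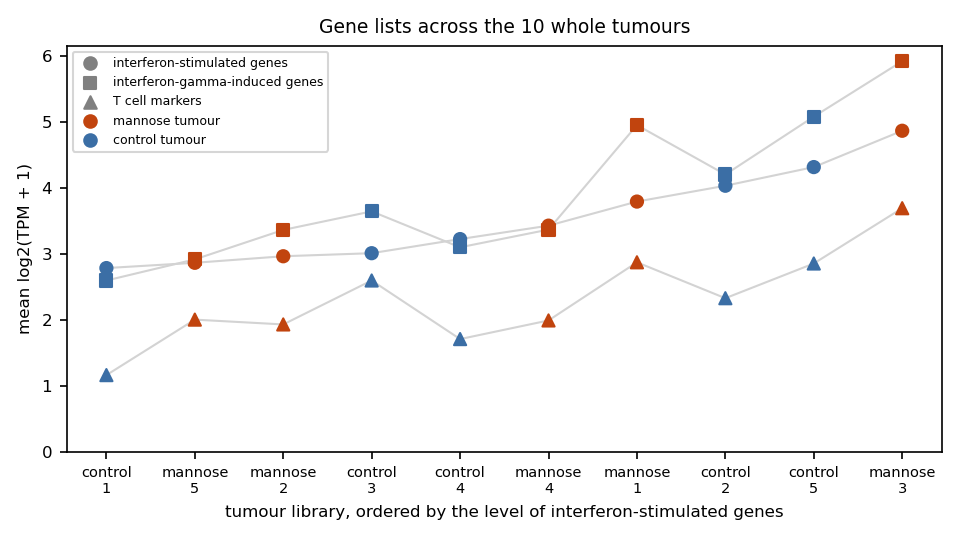
Mean log2(TPM + 1) of the interferon-stimulated genes, interferon-gamma-induced genes and T cell markers in the 10 tumours, ordered by the first; colour gives the treatment. Mannose and control tumours are mixed along the order, from control 1 at 2.78 to mannose 3 at 4.87 for the interferon-stimulated genes.

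The mannose difference in CD8 libraries was set against that in tumours as an interaction in 1 fit of all 16 libraries. It was negative and passed for 3 of the 36 genes (7.64% of 15498 symbols) and positive for none (11.0% of all symbols), a share of 8.33% that is near the background. The 3 were Rsad2 at -2.65 (SE 0.58, adjusted p = 0.00488), Ifih1 at -1.78 (SE 0.53, adjusted p = 0.0293) and Mx1 at -2.25 (SE 0.72, adjusted p = 0.0393). Isg15 followed at -1.90 and did not pass (SE 0.70, adjusted p = 0.0705). For the other 32 genes a difference between CD8 libraries and tumours was not shown, although 34 of the 36 values were negative, with a median of -0.85 against -0.0001 over all symbols. The fit takes 1 spread for both tissues, and the within-group spread of these genes was wider in tumours (median 0.81) than in CD8 libraries (0.28). The number that passed was 1 without CD8 control 1, 2 or 3 or without CD8 mannose 1 or 2, in each case taken singly, and 5 without tumour control 5 or tumour mannose 5. Without tumour control 5, 1136 of all 15453 symbols passed as negative, and without tumour mannose 5, 1077 of 15438.

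Levels in the CD8 control libraries were set beside those in control tumours without a test, since the tables of the tissues list different entries. For 25 of the 36 genes every CD8 control value lay above every control tumour value (39.0% of symbols), and for Bst2 every one lay below (25.4% of symbols). The ratio of means was 19.2 for Mx1 (37.6 ± 13.5 TPM in CD8 and 1.96 ± 1.26 TPM in tumours), 18.7 for Rsad2 (63.4 ± 26.8 and 3.38 ± 1.74 TPM), 14.6 for Ddx60 and 13.4 for Sp100 (SD, n = 3 CD8 and 5 tumour libraries). It was near 1 for Usp18 (0.957) and Isg20 (0.937). Among mannose samples, Rsad2 averaged 8.91 ± 1.16 TPM in CD8 libraries and 3.76 ± 3.11 TPM in tumours, and Isg15 averaged 59.8 ± 12.2 TPM in CD8 libraries and 65.9 ± 53.7 TPM in tumours (SD, n = 3 and 5). In mannose samples the means of Isg15 in the 2 tissues lay within their spread.

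The rest of the interferon pathway was described from lists of its ligands, receptors, sensors and targets. Of 20 genes for interferon ligands none was high enough to be tested in either tissue. Ifnb1, which encodes interferon beta, was listed at 0, 0 and 0 TPM in CD8 mannose libraries, against 1.23, 0.87 and 3.19 TPM in CD8 control libraries, and at or under 0.11 TPM in mannose and 0.22 TPM in control tumours. Among receptors and their signal proteins, 6 of 13 tested genes fell in CD8 libraries and none rose (median -0.40). Over all symbols tested there, 11.7% fell and 23.2% rose. The receptor chain Ifnar1 averaged 69.4 ± 13.4 TPM in mannose and 128 ± 8.21 TPM in control libraries (SD, n = 3 each), a difference of -0.89 (adjusted p = 0.00465), and the chain Ifnar2 differed by -0.36 (adjusted p = 0.0439). Il10rb, a chain of the interferon lambda receptor, fell by 0.80, the interferon gamma receptor chain Ifngr2 by 1.02 and the inhibitor Socs3 by 0.88 (adjusted p from 0.00329 to 0.00986). The kinases did not pass: Jak1 had -0.37 (adjusted p = 0.0544) and Tyk2 -0.34 (adjusted p = 0.0678).

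Of 17 genes that sense nucleic acids or relay that signal towards interferon, 10 fell and 2 rose in CD8 libraries (median -0.48). For this list and the next, the shares over all symbols tested there were 11.7% that fell and 23.2% that rose. The transcription factor Irf5, active mainly in myeloid and B cells, fell to 16.1 ± 1.21 TPM in mannose libraries, against 71.6 ± 14.7 TPM in control libraries (SD, n = 3 each), a difference of -2.07 (adjusted p = 0.000337). The endosomal receptors Tlr9 (-1.70, adjusted p = 0.000506) and Tlr7 (-1.33, adjusted p = 0.00329) and the DNA-degrading exonuclease Trex1 (-1.13, adjusted p = 0.00296) fell too. The adaptor Mavs and the double-stranded RNA receptor Tlr3, singled out after seeing their values, were the 2 that rose, Mavs by 0.56 (adjusted p = 0.0279) and Tlr3 by 1.08 (adjusted p = 0.0359). Of 50 further type I interferon-stimulated genes outside the 36, 25 fell and 4 rose (median -0.58). Among those with the smallest p were Ifi205 (-1.60, adjusted p = 0.00149) and Ifi207 (-1.40, adjusted p = 0.00227), of the same family as Ifi204, and Lgals9 (-0.69, adjusted p = 0.00212). The 4 that rose, likewise chosen with their values in view, were Ifitm1 (0.84, adjusted p = 0.0129), Tdrd7 (0.84, adjusted p = 0.00383), Ly6e (0.35, adjusted p = 0.0095) and Ifi27 (0.29, adjusted p = 0.0175).

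Of 24 interferon-gamma-induced genes, 11 fell and 3 rose in CD8 libraries (median -0.47), while 11.7% of all symbols fell and 23.2% rose. Nos2, the inducible nitric oxide synthase of activated macrophages, averaged 10.0 ± 0.949 TPM in mannose and 50.4 ± 10.2 TPM in control libraries, a difference of -2.21 (adjusted p = 0.00031). Cd274, which encodes PD-L1, averaged 55.1 ± 16.2 TPM in mannose and 141 ± 12.7 TPM in control libraries, a difference of -1.38 (adjusted p = 0.00312) (SD, n = 3 each for both genes). Ciita, the activator of MHC class II genes, differed by -1.33 (adjusted p = 0.00564). The tryptophan-degrading enzyme Ido1 rose, to 25.8 ± 8.87 TPM in mannose libraries, against 6.17 ± 2.19 TPM in control libraries, a difference of 1.91 (adjusted p = 0.00495). The GTPase genes Iigp1 (1.15, adjusted p = 0.03) and Tgtp1 (1.03, adjusted p = 0.0125), also chosen with values in view, rose as well. In whole tumours no gene of any of these lists passed. The smallest p among interferon-gamma-induced genes there belonged to Gbp7, at 8.29, 2.55, 19.97, 3.59 and 2.33 TPM with mannose, against 0.630, 5.28, 2.64, 2.45 and 7.67 TPM in controls (difference 0.65, adjusted p = 0.793). As with the 36 genes, mannose 3 was the highest tumour for Gbp7 and the groups overlapped.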

How the data were processed

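Messenger RNA of 10 whole HM1 tumours and 6 libraries of sorted CD8 T cells was measured by bulk RNA sequencing. Each deposited table holds the TPM of 1 library by gene symbol, a unit taken from the column sums of 993815 to 997809. Per the submitters' processing notes the tools were fastp, HISAT and RSEM and the build GRCm39, without versions or roles, and the annotation and strand setting are not given in the sources used here. TPM carries no depth, so no counting interval was possible.

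Groups came from the sample labels. Entries sharing a symbol were summed within each kind of table (53112 tumour and 55290 CD8 symbols), and each tissue was fitted on its own tables. Fits of all 16 libraries used the 52916 symbols common to both kinds of table. Log2(TPM + 1) was fitted with limma 3.58.1 (variance trend) in R 4.3.3, mannose against control in each tissue, for symbols that reached 1 TPM in at least 5 tumour or 3 CD8 libraries. An interaction was fitted over all 16 libraries (1 TPM in 3). P-values were adjusted over all tested symbols by the Benjamini-Hochberg method at 0.05. In simulated data the tumour, CD8 and interaction fits called 28%, 36% and 6% of 1.5-fold changes. Of 2-fold changes they called 61%, 67% and 43%. The changed symbols were drawn at random without regard to the 36 genes, so these shares do not apply to them. List levels are means of log2(TPM + 1) over the genes.

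The 36 genes, the gene lists and the alternatives were chosen with earlier results of these data known. Values per library are given for a panel of 13 genes, for up to 6 genes with the smallest p in each direction of each mannose comparison and for 4 in the interaction; of other interferon lists up to 4 genes per comparison and Ifnb1, Ifnar1, Ifnar2, Jak1 and Tyk2 were named, and some genes that this rule covers are not reported here. Alternatives were pseudocounts of 0.1 and 0.5 TPM, no filter or a filter at 5 TPM, quantile and median-ratio scaling, the replicate number as a block, array weights, 1 fit of all libraries, libraries left out, like CD8 pairs averaged and scaling to T cell markers. Promoter windows came from RefSeq (GRCm38.p6), matched by symbol; no coordinates of the expression tables' build are given. Figures were drawn with matplotlib 3.10.9.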

Additional observations from a re-analysis of the deposited data

Results flagged for a closer look

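In groups of 4 to 10 libraries a value was set aside for a closer look when its gap to the nearest other value was an unusually large part of the whole range (Dixon's test at 95%). Each of the 36 genes was examined in the mannose and in the control tumours, 72 groups in all, and 16 values were picked out. The values were taken in TPM, not on the log2 scale of the fits. Chance alone picks out about 1 in 20 groups if values are normally spread, and the genes are not independent. All 16 values were the highest of their group and came from tumour mannose 3. They were Irf7 at 161.94 TPM, Ifih1 at 7.43, Ddx60 at 1.77, Eif2ak2 at 14.54, Herc6 at 7.06, Ifit1 at 15.99, Ifit2 at 13.4 and Ifit3 at 53.55 TPM. Further values were Oas1a at 51.05, Oas1g at 18.47, Oas2 at 11.83, Mx1 at 8.9, Rsad2 at 9.12, Cmpk2 at 13.2, Trim30a at 18.12 and Sp100 at 35.63 TPM. The nearest other mannose tumour had 64.7 TPM for Irf7, 13.1 TPM for Ifit3 and 3.36 TPM for Ifit2. The same tumour also had the highest summed T cell markers (296 TPM) and macrophage markers (4635 TPM) of its group, and their part in these values was not tested.

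For 3 genes the mannose difference in CD8 libraries was itself different from that in whole tumours, by limma's interaction term: Rsad2 by -2.65 (SE 0.58, adjusted p = 0.00488), Mx1 by -2.25 (SE 0.72, adjusted p = 0.0393) and Ifih1 by -1.78 (SE 0.53, adjusted p = 0.0293). All 3 CD8 mannose values lay below all 3 CD8 control values for each of these genes, while the mannose and control tumours overlapped. The share of the 36 genes that passed as negative (8.33%) was near that of all 15498 symbols (7.64%), and the number was 1 without CD8 control 1, 2 or 3 or CD8 mannose 1 or 2 taken singly, with the replicate number as a block, with a pseudocount of 0.1 TPM and without the filter on low values.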

How the results depend on the processing

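In whole tumours 0 of the genes tested were called in either direction under each alternative run. The genes tested numbered 35 in the main fit and 24 with the filter at 5 TPM. The median tumour difference (0.05) was -0.05 under quantile normalization as well as median-ratio scaling, and with 1 library left out it ranged from -0.26 to 0.34.

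In CD8 libraries the count that fell (24) was 5 in a fit of all 16 libraries, 6 with like pairs averaged and 7 after scaling to T cell markers. It was 12 to 30 with 1 library left out. Over all symbols 1674 of 14280 fell in the main fit and 1258 of 15498 in the fit of all 16 libraries. With like pairs averaged 561 of 14459 symbols fell, and after that scaling 400 of 14236. From 894 of 14685 symbols (without mannose 2) to 2509 of 14789 (without mannose 3) fell with 1 library left out. Bst2, the gene that rose, was not called (count 0) in the fit of all 16 libraries and with like pairs averaged, and was called in each fit that left out a library (count 1). The median difference (-0.79) was -0.23 after scaling to T cell markers and -0.90 to -0.64 with 1 library left out. That scaling also turned Irf9 to 0.081 and Ifi204 to 0.090. It moved the median of all symbols to 0.62, against 0.09 unscaled, so values after it are read against that shift; quantile normalization moved it to -0.03. Among the other alternatives the count that fell was 18 with no filter, 25 under quantile normalization, 28 under median-ratio scaling and 32 with array weights. Over all symbols, 1250 of 27302, 2305 of 14280, 2330 of 14257 and 3517 of 14280 fell in the same order.

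In the interaction the count of negative calls (3) was 1 with a pseudocount of 0.1 TPM and 1 without the filter. It was 5 under quantile normalization, 8 with array weights and 1 to 5 with 1 library left out, and positive calls were 0 throughout. Negative calls over all symbols were 1184 of 15498 in the main fit, 968 of 15498 with that pseudocount and 1068 of 30612 without the filter. They were 1706 of 15498 under quantile normalization and 2845 of 15498 with array weights, so under these settings the larger counts came with more calls over all symbols. The count of 5 without tumour control 5 or tumour mannose 5 did not, with 1136 of 15453 and 1077 of 15438 symbols.

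With the replicate number as a block, 25 genes fell and 1 rose in CD8 libraries, 0 were called in tumours and 1 was negative in the interaction. Over all symbols 1686 of 14280 fell and 3152 rose in CD8 libraries, and 1026 of 15498 were negative in the interaction. Same-numbered libraries did not deviate together (correlations of -0.51 to 0.28 in tumours and 0.06 to 0.16 in CD8 libraries), so the numbers were not taken as pairs. The causes of these shifts were not tested. TPM does not give depth, and 3 libraries a group, some of them alike, limit the precision in CD8 libraries.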
